A study of Mus musculus with 2 samples.

Results

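The regions described here are accessible stretches of chromatin that lie inside the exons of protein-coding genes but away from promoters. They were taken from the series' conservative list of reproducible ATAC-seq peaks, with overlapping peaks merged into regions and the position of the strongest peak taken as the summit. A region was kept where its summit lay over 1 kb from the transcription start site (TSS) of every protein-coding transcript and inside a coding exon or an untranslated region (UTR) of such a transcript. This left 869 of 31532 regions. Of these, 455 had a coding summit, 370 a summit in a 3′ UTR and 29 in a 5′ UTR, and 15 lay where annotated transcripts disagree.

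The series holds 1 group of 2 ATAC-seq libraries, labelled as biological replicates 1 and 2, made from adult haematopoietic stem cells; the mice were C57BL/6J and 5 to 6 weeks old. No treatment, mutant allele or transgene is named in the labels. Both libraries carry the same donor identifier, sex was not collected and no sorting markers are named, so whether the libraries came from separate animals is unknown and the spread between them may be technical. A starting quantity of 50000 cells is given for replicate 2 and none for replicate 1, and read depth is unknown because peaks and not reads were analysed.

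In ATAC-seq a transposase inserts sequencing adapters into DNA that is not wrapped tightly in nucleosomes, so that promoters and enhancers stand out as peaks. Enhancers are best known from introns and from the space between genes, but exons can also hold binding sites for transcription factors, and a stretch of DNA can then carry an amino acid code and a regulatory site at once. In blood stem and progenitor cells, PU.1 and RUNX1 are among the factors that bind distal elements, CTCF marks the boundaries and anchors of chromatin loops, and the KLF and SP factors bind GC-rich promoter sequence.

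Short stretches of sequence around motif matches are shown first, because the results on motifs turn on them. Each is the match nearest the summit in one of the 3 exonic regions of highest signal that hold the motif, read 5′ to 3′ on the strand that carries the letters. All come from the GRCm38.p6 (mm10) sequence, and the capitals mark the match. A match describes letters and is no evidence that the factor was bound. It may also lie outside the exon that holds the summit. The first group holds GAGGAAG, the core recognised by PU.1:
Ncam2 (chr16:81437704-81437732, plus strand): tgtaccacaatGAGGAAGtcaccaccatc
Snx14 (chr9:88404280-88404308, plus strand): ggtgacacgcaGAGGAAGcctcaccgact
Prdm2 (chr4:143162093-143162121, minus strand): cagctgcgattGAGGAAGagcgagccagc
The next group holds TGTGGT, the core recognised by RUNX factors:
Ncam2 (chr16:81437696-81437723, minus strand): gacttcctcatTGTGGTacaaccagctg
Hcrtr2 (chr9:76230597-76230624, plus strand): ttgctgatctgTGTGGTcagggacttcc
Pop1 (chr15:34530259-34530286, plus strand): gacgcaggggcTGTGGTcaggccccctt
The third group holds the core of the CTCF consensus, in which some positions may be any base:
Hook2 (chr8:84998034-84998061, plus strand): agactgtgCCAGCAGGAGGCcgcggacc
Flot1 (chr17:35829897-35829924, plus strand): gagcgcgcCCAGCAGGTGGCagtgcagg
Spred1 (chr2:117180695-117180722, minus strand): aaagccatCCAGCAGGTGGCactgcagc
The last group holds CCGCCC, the GC box of KLF and SP factors:
Pop1 (chr15:34530222-34530249, plus strand): aggccgcagggCCGCCCatagctgggca
Enpep (chr3:129270201-129270228, plus strand): catctcaggctCCGCCCacggtgcagca
Prdm2 (chr4:143162226-143162253, minus strand): ccgctgtcgtgCCGCCCccgccaacaac
In the coding exon of Ncam2 the PU.1 and RUNX matches sit side by side on opposite strands, so that the complement of the PU.1 letters can be read at the left of the RUNX stretch.

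Across the series, 11226 regions had a summit within 1 kb of a protein-coding TSS and are called promoter regions here. A further 8906 were intronic and 10531 intergenic. Promoter regions were also counted over gene lists, to set beside the sample's label. Of the stem and progenitor transcription factors 19 of 24 had a promoter region, as did 9 of 18 stem cell surface and marker genes, against 11258 of 21853 protein-coding genes (51.5%). Promoter regions were also present at 5 of 18 granulocyte and monocyte genes, 5 of 16 erythroid genes, 6 of 14 megakaryocyte and platelet genes, 5 of 15 B cell genes, 6 of 18 T and natural killer cell genes and 6 of 20 liver, muscle and neural genes. The shares of these other lineages and tissues ran from 27.8% to 42.9%, each below that of all protein-coding genes. The share of stem cell surface and marker genes was close to that of all genes. Promoter regions were also present at 21 of 28 chromatin regulators and 19 of 23 cytokine signalling genes. A high share was therefore not particular to stem and progenitor factors, and these counts do not settle the label. Whether other cells contributed was not tested.

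Outside promoters, exons held more summits per base than introns or intergenic sequence taken over the whole genome. Sequence next to the exons was not compared on its own. Exonic regions made up 4.28% of the 20306 regions outside promoters (95% Wilson interval 4.01 to 4.57), whereas exons held 2.39% of the called bases outside promoters. That came to 14.1 summits per megabase of exon, compared with 9.79 in introns and 6.53 between genes. Coding exons held 15.9 summits per megabase and 3′ UTRs 11.8. The 29 summits in 5′ UTRs fell on a small amount of sequence and gave 38.5 per megabase, with the widest interval. Wilson intervals in this text cover counting error only, no test of these differences was run, and mappability was not corrected for.

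**Figure D1:**
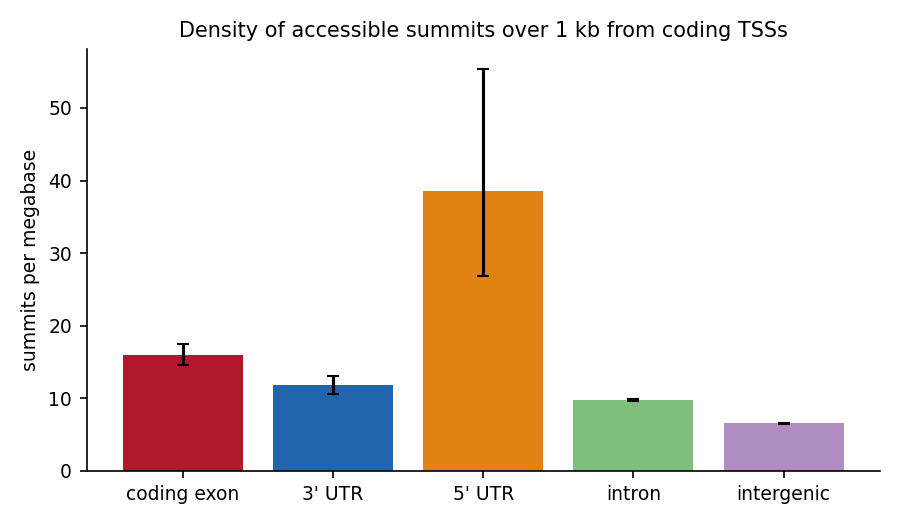
Summits per megabase of annotated sequence over 1 kb from protein-coding start sites, for coding exons, 3′ UTRs, 5′ UTRs, introns and intergenic sequence; bars are densities and lines are 95% Wilson intervals of the share of summits, scaled to the density. Coding exons (15.9) and 3′ UTRs (11.8) stand above introns (9.79) and intergenic sequence (6.53).

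The signal of a region is the authors' value for its strongest peak and is used only to rank and describe regions within a list. Exonic regions had a median signal of 7.49 with quartiles of 6.20 and 8.92, while intronic regions had 7.80, intergenic regions 8.17 and promoter regions 9.37. Exonic regions were thus the weakest class by median, and the quartiles overlapped widely. Median width was 526 bp in exonic regions, 503 bp in intronic regions and 836 bp in promoter regions.

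The strongest exonic region lay in a coding exon of Ncam2, a neural cell adhesion molecule. It covered chr16:81437436-81438146, with the summit in exon 4 of 18, and had a signal of 18.1 in the main list, 16.7 in replicate 1 and 17.1 in replicate 2. The replicate values come from each library's pseudoreplicated list, the longer of the lists used for it and called here the permissive list. Ncam2 was one of the few exonic regions with the higher value in replicate 2, and its summit was 236985 bp from the nearest coding TSS. The gene's own promoter also held a region.

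Hcrtr2, which encodes an orexin receptor, came next with 16.5 in the main list, 15.9 in replicate 1 and 12.1 in replicate 2, in coding exon 7 of 8. Pop1, which encodes a subunit of the RNA-processing enzymes RNase P and RNase MRP, had 16.4, with 16.7 in replicate 1 and 13.8 in replicate 2, in its last exon. Enpep encodes aminopeptidase A, known in the mouse as the BP-1 antigen of early B cells. Its region lay in the 3′ UTR, 60 bases after the stop codon, with 16.1 in the main list and the highest replicate 1 value of all exonic regions, 19.3, against 10.9 in replicate 2. Hcrtr2 and Enpep had no region at their own promoters, whereas Pop1 had one.

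Hook2, which encodes an adaptor linking cargo to microtubules, had 14.6 in the main list, 16.4 in replicate 1 and 11.2 in replicate 2, in exon 15 of 22. Snx14, a sorting nexin gene, had 14.5 in the main list, 17.3 in replicate 1 and 6.66 in replicate 2. Among 3′ UTRs, Rnf180, which encodes a ubiquitin ligase, had 14.0 in the main list, 14.7 in replicate 1 and 10.9 in replicate 2. These 3 genes show that strong signals occurred in internal coding exons and in 3′ UTRs alike. Vcl, the gene of the cytoskeletal linker vinculin, followed in the 3′ UTR class with 13.6 in the main list, 14.9 in replicate 1 and 8.95 in replicate 2. Lars2, the mitochondrial leucyl-tRNA synthetase gene, had 14.2 in its 3′ UTR, but its summit window has 7 other copies in the genome at up to 97.9% identity, and how its reads were assigned is not known.

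The 5′ UTR class was small and reached high values, with a median signal of 8.48. Kansl1, which encodes a scaffold of the NSL histone acetyltransferase complex, had 15.6 in the main list, 15.8 in replicate 1 and 9.997 in replicate 2, in exon 2 of 15. Its summit was 71 bp from the annotated start of a miRNA. Sf3b5, which encodes a subunit of the splicing complex SF3b, had 14.9 in the main list, 16.9 in replicate 1 and 11.7 in replicate 2, at 3044 bp from the nearest coding TSS. In the other 5′ UTR regions of highest signal, Bend6, a BEN domain gene, had 12.8 in the main list, 15.1 in replicate 1 and 8.43 in replicate 2. Nup160, which encodes a nuclear pore scaffold protein, had 12.6, with 13.2 in replicate 1 and 10.6 in replicate 2. Pura, which encodes a nucleic acid-binding protein, had 10.6, with 11.5 in replicate 1 and 8.20 in replicate 2. Of these, Bend6, Nup160 and Sf3b5 had no promoter region of their own in the main list. Over the class, the host gene had a promoter region for 8 of 29 (27.6%, 14.7 to 45.7). The start of a transcript not annotated as protein-coding lay within 1 kb of 11 of the 29 summits (37.9%, 22.7 to 56.0).

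Fewer exonic regions overlapped the thresholded list of replicate 2 than that of replicate 1, as was so of all regions. Each library also has a list thresholded by the irreproducible discovery rate (IDR), called its thresholded list here. Of the 869 exonic regions, 676 (77.8%, 74.9 to 80.4) overlapped the thresholded list of replicate 1, where 84.6% of all regions did. In replicate 2 the overlap was 485 (55.8%, 52.5 to 59.1), where 65.3% of all regions did. Intronic regions gave 79.3% in replicate 1 and 55.7% in replicate 2, and promoter regions 93.6% and 82.6%. The shortfall of exonic regions below the whole list was therefore close to that of the other regions outside promoters. Both lists held 436 exonic regions (50.2%), where 61.0% of all regions were in both. Replicate 1 alone held 240 (27.6%, against 23.7% of all regions), replicate 2 alone 49 (5.64%, against 4.36%), and neither held 144 (16.6%, against 11.0%).

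The permissive list of replicate 1 held 867 of the exonic regions (99.8%, as of all regions, 99.8%) and that of replicate 2 held 847 (97.5%, against 98.2%). Presence in both is largely set by the choice of a reproducible list of both replicates, and nothing about exonic regions is read from it. Over the 845 present in both, the signals ran in a similar order (Spearman's rho 0.636), and the median was 8.38 in replicate 1 and 5.64 in replicate 2. Replicate 1 had the higher value in 811 of them (96.0%), against 94.5% of intronic regions. No common scale for the lists is stated, so this does not compare accessibility between the libraries. Sptlc1, which encodes a subunit of serine palmitoyltransferase, was among the exceptions with 8.94 in replicate 1 and 10.5 in replicate 2. The Mrps30 3′ UTR region, in a mitochondrial ribosomal protein gene, was the strongest of the 22 missing from replicate 2, with 9.17 in the main list and 11.2 in replicate 1. In 1 region, a coding exon of Tbc1d23, the lists disagreed widely, with 2.23 in the main list, 18.9 in replicate 1 and no peak in replicate 2; the cause was not tested.

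**Figure D2:**
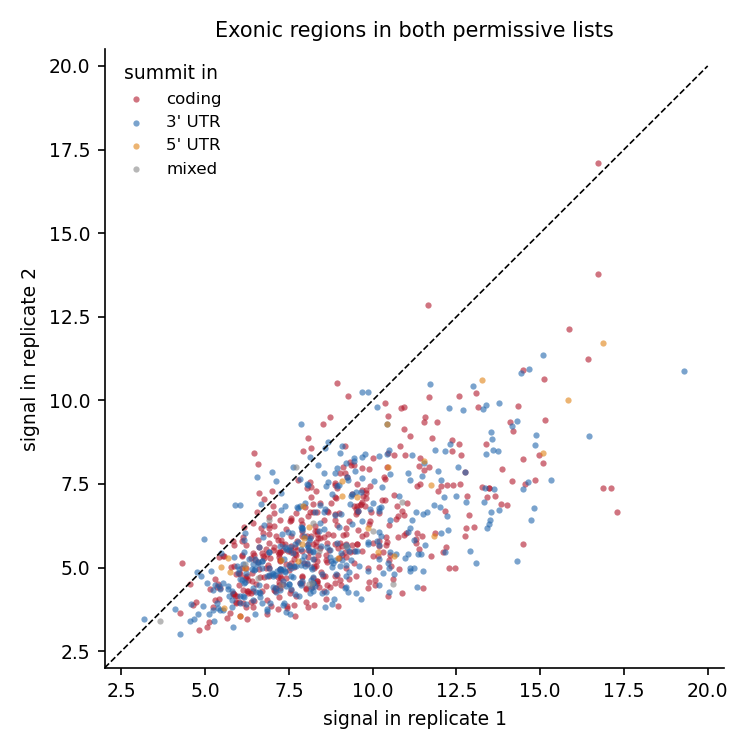
Signal of each exonic region in the permissive list of replicate 1 (horizontal) and of replicate 2 (vertical), coloured by where the summit lies, with the line of equal values dashed. Most of the 845 points lie below the line, and Ncam2 is the point farthest up, at 16.7 and 17.1.

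Within genes, coding summits lay mostly in internal exons and 3′ UTR summits in last exons. Of the 455 coding summits, 296 (65.1%) were in internal exons and 138 (30.3%) in the last exon. Coding exons with a summit had a median length of 256 bp, and all annotated exons with coding sequence had 141 bp. For 3′ UTR summits the exon had a median of 2443 bp, and annotated last exons had 599 bp. A long exon offers more bases for a summit to fall on, and these lengths were not corrected for that. Coding regions usually reached past the exon, since only 90 of 455 (19.8%) lay wholly in exonic sequence, whereas 290 of 370 3′ UTR regions (78.4%) did.

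In 3′ UTRs the summit lay a median of 860 bases after the stop codon, counted along the genome. It fell within 500 bp of the transcript's end in 108 of 370 (29.2%). For 172 of the 370 (46.5%), the nearest coding TSS belonged to another gene, against 116 of 455 coding summits (25.5%). Assigning a region to its host gene or to the nearest TSS therefore gives different genes for many 3′ UTR regions.

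Exonic regions lay closer to coding start sites than other regions outside promoters. The median distance was 9646 bp in exonic regions, compared with 17650 bp in intronic and 30498 bp in intergenic regions. Of the exonic regions 95 (10.9%, 9.03 to 13.2) were between 1 and 2 kb away, against 6.94% (6.43 to 7.49) of intronic regions. Coding summits were at that distance more often (14.7%) than 3′ UTR summits (4.59%). The distance of exonic bases that had no summit was not measured.

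**Figure D3:**
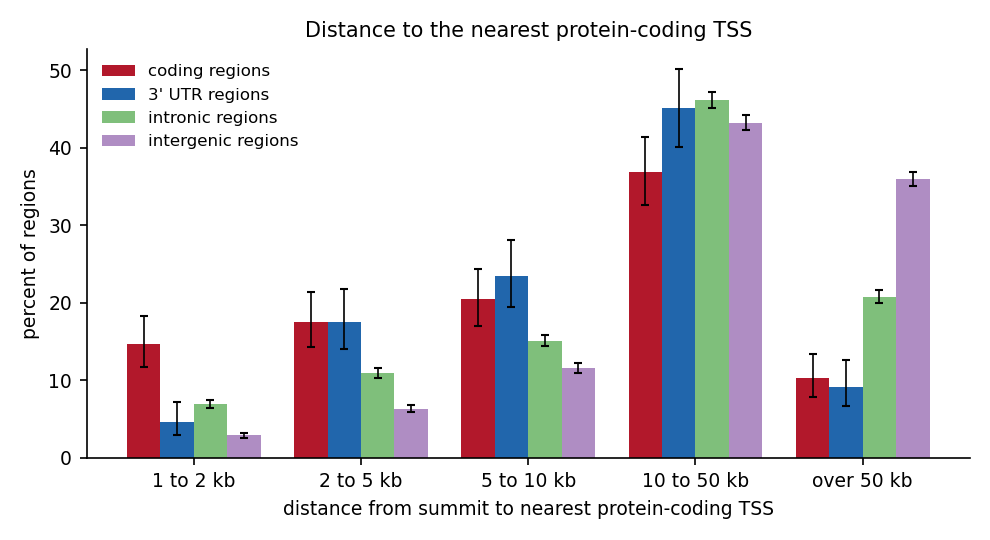
Share of regions (percent, vertical) by distance from the summit to the nearest protein-coding start site, for coding, 3′ UTR, intronic and intergenic regions; lines are 95% Wilson intervals. Coding regions have the highest share at 1 to 2 kb (14.7%), and intergenic regions the highest share over 50 kb (36.0%).

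The members nearest the 1 kb limit were mostly weak: 4 of the 5 lay below the lower quartile of exonic signal, 6.20. Stk35, a kinase gene, was nearest at 1010 bp with a signal of 5.44, and Ddit4, which encodes an inhibitor of mTORC1, followed at 1011 bp with 4.92. Hcrt, the orexin precursor gene, lay at 1037 bp with 6.00, Osbpl3, an oxysterol-binding protein family gene, at 1039 bp with 7.85, and Leng9 at 1041 bp with 5.23. Just inside the limit were exonic summits at 997 bp from 2310033P09Rik with a signal of 4.29 and at 983 bp from Insm2 with 7.04. Others were at 975 bp from Aplnr with 2.02, at 962 bp from Olfr1509 with 15.5 and at 957 bp from B3gat2 with 10.004. Signals on either side of the limit overlapped.

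Some exonic regions sat beside starts that the rule did not use. The start of a noncoding or non-protein-coding transcript lay within 1 kb of 134 summits (15.4%, 13.2 to 18.0), against 9.50% (8.91 to 10.1) of intronic regions. In 87 of the 134 the start belonged to the same gene. The commonest types were retained introns (55), processed transcripts (31) and antisense transcripts (24). A further measure of nearness was direct reach, and 31 exonic regions (3.57%, 2.52 to 5.02) extended into a promoter window. The share was 2.29% (2.00 to 2.62) in intronic and 0.997% in intergenic regions. The 31 were 26 coding regions, 4 5′ UTR regions and 1 3′ UTR region.

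The widest exonic regions were coding or 5′ UTR and of modest signal. Prr36 was the widest at 1702 bp with a signal of 6.72, and Tchh, the gene of the hair follicle protein trichohyalin, followed at 1694 bp with 6.44. Lor, which encodes the skin barrier protein loricrin, reached 1667 bp with 6.21, and Asph, an aspartate beta-hydroxylase gene, 1591 bp with 6.92. Hist1h1d, a linker histone gene, reached 1455 bp with 5.33 in its annotated 5′ UTR. All 5 fell below the median signal of exonic regions, 7.49.

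Coding and 3′ UTR regions differed in base composition. Within 100 bp of the summit the median GC content was 58.7% in coding regions and 53.2% in 3′ UTR regions, compared with 51.7% in intronic and 64.2% in promoter regions. The ratio of observed to expected CpG dinucleotides, which is high in CpG islands, had a median of 0.478 in coding and 0.273 in 3′ UTR regions, against 0.236 in intronic and 0.785 in promoter regions. CpG-rich windows, with a ratio of at least 0.6 and GC of at least 50%, made up 165 of 455 coding regions (36.3%, 32.0 to 40.8) and 30 of 370 3′ UTR regions (8.11%, 5.74 to 11.3). Among intronic regions the share was 3.90% (3.51 to 4.32). In 5′ UTR regions it was 14 of 29 (48.3%, 31.4 to 65.6), and in promoter regions 74.2%. CpG content of coding exons without a region was not measured, so these shares were not compared with coding sequence in general.

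Motif letters were searched on both strands within 100 bp of each summit, and again in windows centred 500 bp away on each side. The search was not limited to exons. Coding summits lay a median of 65 bp from an exon edge, so letters counted in coding regions can lie in a neighbouring intron. The PU.1 letters occurred in 164 exonic regions (18.9%, 16.4 to 21.6) and in 7.54% of their flanking windows. Coding regions held them in 23.5% (19.9 to 27.6), near the 24.6% (23.8 to 25.5) of intronic regions, while 3′ UTR regions held them in 14.9% (11.6 to 18.9). Promoter regions held them in 11.9%. The RUNX letters occurred in 215 exonic regions (24.7%, 22.0 to 27.7), in 13.1% of their flanks and in 32.5% (31.6 to 33.5) of intronic regions. Here the order of the exonic classes was the other way round, at 29.2% (24.8 to 34.0) in 3′ UTR and 22.9% (19.2 to 26.9) in coding regions.

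CTCF letters were rare away from summits. They occurred in 74 exonic regions (8.52%, 6.84 to 10.6) and in 0.288% of flanking windows. In 3′ UTR regions the share was 11.6% (8.74 to 15.3), against 6.29% (5.80 to 6.81) in intronic, 7.66% (7.17 to 8.19) in intergenic and 1.86% in promoter regions. The intervals of the 3′ UTR and of the intronic and intergenic shares did not overlap, and coding regions had 6.37% (4.47 to 9.0). Matches to CTCF lay a median of 16.5 bp from the summit, closer than those to RUNX (29 bp) or PU.1 (33 bp).

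The 74 exonic regions with CTCF letters were narrower than the other 795, at a median of 357 bp against 537 bp, and had a median signal of 7.02 against 7.53. They overlapped the thresholded list of replicate 2 in 36.5% (26.4 to 47.9), against 57.6% (54.1 to 61.0) of the other exonic regions. In 3′ UTRs these shares were 27.9% (16.7 to 42.7) and 56.3% (50.9 to 61.5), and in coding regions 44.8% (28.4 to 62.5) and 58.0% (53.2 to 62.6), where the intervals overlapped. The same gap appeared outside exons, with 39.1% of intronic regions with the letters and 56.8% of those without in that list. Replicate 1 showed less difference, with 73.0% of exonic regions with the letters and 78.2% of those without. Hook2 held the strongest such region, and Flot1, which encodes the membrane scaffold protein flotillin, had 12.0 in the main list, 14.1 in replicate 1 and 9.35 in replicate 2. Spred1, which encodes an inhibitor of Ras signalling, had 11.8 in its 3′ UTR, 14.5 in replicate 1 and 7.34 in replicate 2.

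KLF and SP letters were commoner in coding than in 3′ UTR regions. They occurred in 21.8% (18.2 to 25.8) of coding and 11.1% (8.27 to 14.7) of 3′ UTR regions, in 9.82% (9.22 to 10.5) of intronic regions and in 59.4% of promoter regions. Flanking windows differed too, at 7.25% in coding, 5.14% in 3′ UTR, 3.72% in intronic and 18.7% in promoter regions. Of the 29 5′ UTR regions 12 held them (41.4%, 25.5 to 59.3). Prdm2, a zinc finger gene of the PRDM family, had 13.2 in the main list, 14.3 in replicate 1 and 9.83 in replicate 2, and held both KLF/SP and PU.1 letters. The ETS letters CCGGAAG occurred in 5.06% (3.79 to 6.73) of exonic regions, against 2.53% (2.22 to 2.87) of intronic and 16.1% of promoter regions. Their flanks were in the same order, at 1.84% in exonic, 0.938% in intronic and 2.57% in promoter regions. GATA letters (AGATAA) were scarcer in exonic regions, at 4.60% (3.40 to 6.21) against 9.11% (8.53 to 9.72) in intronic regions, and lay below their own flanks (7.94%), as they did in intronic (10.9% in flanks) and intergenic regions (8.72% against 10.8% in flanks). AP-1 letters (TGANTCA) occurred in 2.20% (1.20 to 4.00) of coding, 7.03% (4.84 to 10.1) of 3′ UTR and 10.3% (9.67 to 10.9) of intronic regions. Flanks of these classes held them in 5.05%, 5.14% and 5.85%, so the coding share lay below its flanks. The TAL1 E-box letters (CAGATG) occurred in 17.5% (15.1 to 20.2) of exonic and 17.9% of intronic regions, with intervals that overlapped. The exonic share was also close to that of its flanks, 15.8% (14.2 to 17.6). Codon use and base composition constrain which letters exons can hold, and these shares were not adjusted for either. Nor were they adjusted for the part of each window outside exons.

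**Figure D4:**
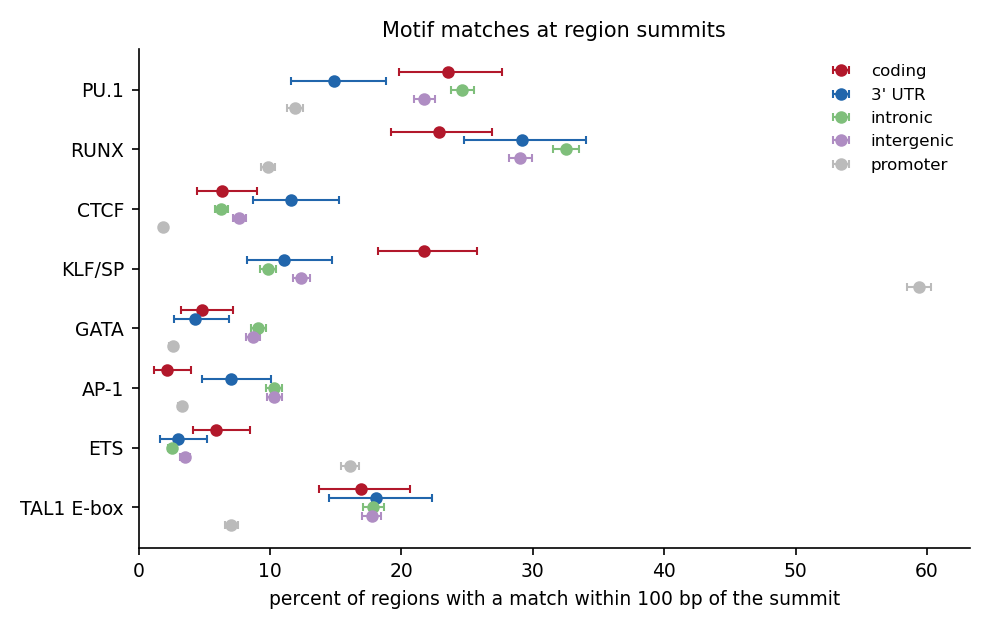
Share of regions (percent, horizontal) with motif letters within 100 bp of the summit, for coding, 3′ UTR, intronic, intergenic and promoter regions; lines are 95% Wilson intervals. CTCF letters are most frequent in 3′ UTR regions (11.6%) and KLF/SP letters in promoter regions (59.4%), with coding regions next (21.8%).

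The orientation of letters relative to the host gene was compared for the 16 motifs that are not palindromes, in coding and in 3′ UTR regions. Over all exonic regions, 94 of 189 PU.1 matches and 127 of 251 RUNX matches lay on the gene's strand. The interval left out 50% in 5 of the 32 pairs of motif and class, with no adjustment for their number. Matches and not regions were counted, and some regions held more than 1 match. The 87 TAL1 E-box matches in coding regions lay in 77 regions, and the 56 KLF/SP matches in 3′ UTRs in 41. These intervals may therefore be too narrow. For the TAL1 E-box, 57 of 87 matches in coding regions (65.5%, 55.1 to 74.7) read along the gene's strand, against 35 of 74 in 3′ UTR regions (47.3%, 36.3 to 58.5). In 3′ UTR regions KLF and SP letters read along the gene's strand in 36 of 56 matches (64.3%, 51.2 to 75.5) and in coding regions in 61 of 131 (46.6%, 38.2 to 55.1). The remaining pairs were in 3′ UTR regions and small, with 13 of 14 CREB/ATF matches (TGACGT; 68.5 to 98.7), 9 of 11 ETS matches (52.3 to 94.9) and 10 of 32 C/EBP matches (18.0 to 48.6) on the gene's strand.

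**Figure D5:**
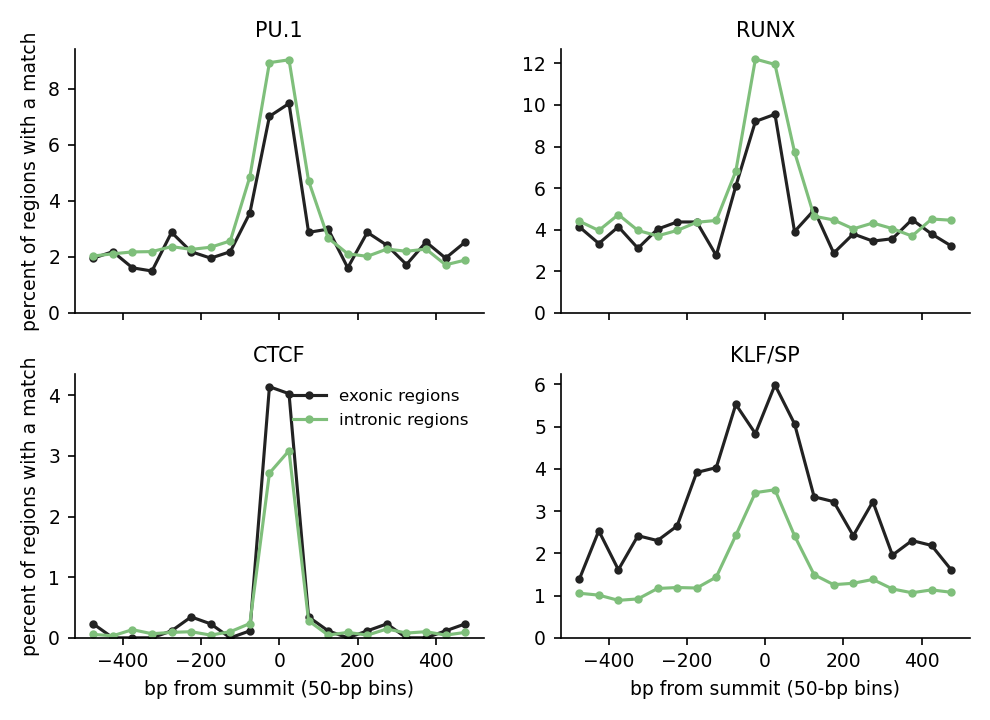
Share of regions (percent, vertical) with a match in each 50-bp bin by distance from the summit (horizontal, bp), for exonic and intronic regions and 4 motifs. PU.1, RUNX and CTCF matches peak in the 2 central bins in both classes, and the KLF/SP profile of exonic regions is broader and higher than that of intronic regions.

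Of all protein-coding genes 4.00% (874 of 21853) had an exonic region. Among the blood cell lists the share ran from 0% (B cell, and T and natural killer cell genes) to 28.6% (megakaryocyte and platelet genes). Each list is short, so its interval is wide. Among the stem and progenitor transcription factors 1 of 24 had an exonic region (4.17%, 0.739 to 20.2). This was Meis1, a homeobox factor of stem cells, in its 3′ UTR with a signal of 6.45, 7.32 in replicate 1 and 4.95 in replicate 2. Of the stem cell surface and marker genes 2 of 18 did. Flt3, the receptor of FLT3 ligand on multipotent progenitors, had 10.7 in coding exon 20 of 24, 11.5 in replicate 1 and 9.34 in replicate 2. Itga2b, which encodes CD41 of megakaryocytes and early progenitors, had 6.91 in exon 27 of 30, 7.21 in replicate 1 and 5.32 in replicate 2.

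Megakaryocyte and platelet genes had exonic regions in 4 of 14. The strongest lay in the 3′ UTR of Itgb3, the beta chain that pairs with CD41, with 9.26 in the main list, 8.66 in replicate 1 and 8.75 in replicate 2. Vwf, von Willebrand factor, had 6.46 in exon 14 of 52, with 8.18 in replicate 1 and 4.41 in replicate 2. Gp5, a platelet membrane glycoprotein, had 5.86, with 5.76 in replicate 1 and 5.02 in replicate 2. Nbeal2, needed for platelet alpha granules, had 5.24, with 7.69 in replicate 1 and 3.56 in replicate 2. The list is short, with an interval of 11.7% to 54.6% around its share of 28.6%.

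Erythroid genes had exonic regions in 2 of 16. Klf1, the erythroid Krüppel-like factor, had 8.42 in coding exon 2 of 3, with 10.2 in replicate 1 and 6.62 in replicate 2. Sptb, erythroid beta spectrin, had 6.31 in its 3′ UTR, with 6.70 in replicate 1 and 5.18 in replicate 2. Among granulocyte and monocyte genes, Csf1r, the receptor of macrophage colony-stimulating factor, was the one of 18, with 4.52 in its 3′ UTR, 5.46 in replicate 1 and 4.36 in replicate 2, at a place where an exon of Hmgxb3 overlaps. Bptf, a chromatin remodelling subunit and 1 of 28 chromatin regulators, had 9.66, with 12.5 in replicate 1 and 5.00 in replicate 2. Il6ra, the interleukin-6 receptor and 1 of 23 cytokine signalling genes, had 6.89 in its 3′ UTR, with 6.03 in replicate 1 and 6.86 in replicate 2. None of the 15 B cell, 18 T and natural killer cell, 18 immediate early and 16 housekeeping genes had an exonic region. The upper limits of the intervals of these 4 shares ran from 17.6% to 20.4%, above the 4.00% of all genes. These lists are therefore too short to tell a low share from that of all genes. All 18 immediate early and all 16 housekeeping genes had a promoter region.

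Genes of other tissues were also among the members. Of 20 liver, muscle and neural genes, 4 had an exonic region (20%, 8.07 to 41.6), against 4.00% of all protein-coding genes. The interval overlapped that of megakaryocyte and platelet genes (11.7% to 54.6%), so a high share was not particular to that lineage. None of the 4 genes had a promoter region in the main list. Ckm, muscle creatine kinase, had the strongest of the blood and other tissue lists, with 11.8 in its 3′ UTR, 14.9 in replicate 1 and 8.67 in replicate 2. Gfap, the astrocyte filament protein, had 9.87 in coding sequence, with 12.0 in replicate 1 and 7.45 in replicate 2. Neurod1, a neuronal differentiation factor, had 9.72, with 10.7 in replicate 1 and 6.84 in replicate 2. Apoa1, the main apolipoprotein of high-density lipoprotein, had 9.66, with 10.9 in replicate 1 and 6.69 in replicate 2. Exonic regions thus occurred in genes whose own promoters were not in the list.

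Over all 874 host genes, 490 (56.1%, 52.8 to 59.3) had a promoter region, against 65.6% (64.2 to 66.9) of genes with an intronic region and 51.5% of all protein-coding genes. An intronic region was also present in 314 hosts (35.9%, 32.8 to 39.2), against 21.6% of all genes. Host genes had a median of 4224 exonic bases, promoters included, against 2858 over all genes, and the shares were not adjusted for that. Gene families differed in the same count. Zinc finger genes with a Zfp symbol had exonic regions in 8 of 394, olfactory receptor genes in 3 of 1134, cytosolic ribosomal protein genes in 1 of 101, histone genes in 1 of 67 and keratin genes in 2 of 113. No collagen gene of 45 and no Hox gene of 39 had one, with upper limits of 7.87% and 8.97%, above the 4.00% of all genes. Of 69 protocadherin genes 23 did, but most of these share the same last exons in the gamma cluster and rest on 1 region with a signal of 6.45, annotated to Pcdhgc5 and overlapping its neighbours.

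Nearly all hosts had a single exonic region, 30 had 2 and Itsn1 had 3. Itsn1 encodes intersectin, an adaptor of endocytosis. Its strongest region, in the 3′ UTR of exon 39 of 39, had 10.7 in the main list, 13.8 in replicate 1 and 6.72 in replicate 2. The others had 5.26 in a coding exon and 5.23 in the 3′ UTR of a shorter transcript, both lower. Ank2, which encodes an ankyrin adaptor of membrane proteins, had 13.1 in its 3′ UTR and 7.05 in a coding exon. Clip2, a microtubule-linked protein gene, had 9.77 in a coding exon and 4.27 in its 3′ UTR. In D1Ertd622e, both regions lay in the 3′ UTR of the last exon, with 9.85 and 8.89. Cacna1a, a neuronal calcium channel gene, had coding regions of 6.46 and 5.93, Cand2 of 8.33 and 7.18, Cd101 of 8.06 and 7.37, and Baiap2l2 of 10.2 and 5.44. Dab2ip, a Ras GTPase-activating protein gene, had 7.05 in a coding exon and 5.62 in its 3′ UTR.

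Copies elsewhere in the genome were found for few members. The search masked repeat letters, so copies of repeats may be missed in every class. The summit windows of 34 exonic regions (3.91%, 2.81 to 5.42) matched another place at 90% identity or more over 50% of their length or more, against 1.58% (1.34 to 1.86) of intronic and 4.46% (4.08 to 4.87) of intergenic regions. The share was 5.41% in 3′ UTRs and 3.08% in coding exons. Besides Lars2, the strongest were in the 3′ UTRs of Dennd2a, a Rab GTPase activator gene, with 13.6 in the main list, 16.4 in replicate 1 and 8.93 in replicate 2, and of Myl12b, a myosin regulatory light chain gene, with 10.2. Myl12b had 3 other copies, the best identical. Cyp4f17, a cytochrome P450 gene, had 10.1 in its 3′ UTR with 1 other copy, and 6.24 in a coding exon with none. None of the 869 exonic windows matched mitochondrial DNA. Of all 20306 windows outside promoters only 18 did, so nothing particular to exonic regions is read from this.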

How the data were processed

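ATAC-seq was measured in 2 libraries of 1 group. Peak lists on mm10 were deposited by the authors, as the labels say; neither aligner nor caller is named there, with no version and no transposase offset. Peak signal values were deposited by the authors, their scaling unstated, so they were used only within a list. The main list is the conservative IDR thresholded list of both replicates (53241 peaks). Each replicate has an IDR thresholded and a pseudoreplicated list.

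Peaks were merged where they overlapped, and the summit and signal were those of the strongest peak. Overlap with another list meant at least 1 shared base, and a replicate's signal was that of its strongest overlapping peak. Genes came from GENCODE M21 on GRCm38.p6 (21853 protein-coding genes on 21 chromosomes), and all 31532 summits fell on called bases. Windows were 201 bp (summit ±100 bp). Copies were sought with blastn 2.17.0 (e-value 1e-10), with repeat letters of each window masked. Promoter windows were not searched. Tables were made with Python 3.11.15, pandas 2.3.3 and scipy 1.17.1, and the scripts were tested on simulated data. Shares have 95% Wilson intervals. No test between conditions was possible with 1 group, so comparisons are descriptive. Members, 12 gene lists, 8 gene families and 18 motifs were chosen with earlier results of these data known. Named genes were the 10 strongest regions, the 5 strongest per class, the 5 nearest each side of 1 kb, the 5 widest, the 10 genes with most regions (ties alphabetical), list members and up to 3 regions per motif; others were named after their values were seen. Promoter distance, signal level, peak list, overlap and motif window were varied.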

Additional observations from a re-analysis of the deposited data

How the results depend on the processing

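No paired analysis was possible because there was 1 group and no result comes from a test between groups. The other peak lists moved the count most: 869 exonic regions in the main list became 2588 in the replicated list, with a median signal of 4.95 and 10.7% of genes, and the IDR thresholded list of both replicates gave 5.73% of genes. With 1 replicate's own list in place of the main one, the count ran from 574 to 920, the median signal from 6.46 to 8.61, the coding share from 47.8% to 54.9%, the RUNX share from 24.5% to 27.5% and the share of genes from 2.60% to 4.21%. Above the median signal of the main list there were 300 regions, of which 96.7% were in the list of replicate 1, 80.7% in that of replicate 2 and 28.0% held RUNX letters, and 1.37% of genes had one. The same shares of all regions above that signal were not counted, so nothing particular to exonic regions is read from these. With the pseudoreplicated lists the shares of the 869 regions were 99.8% for replicate 1 and 97.5% for replicate 2, against 99.8% and 98.2% of all regions. Excluding summits within 2.5 kb of coding start sites left 3.42% of genes, and excluding those within 1 kb of any transcript start left 3.29%. RUNX letters were in 17.5% of exonic regions within 50 bp of the summit, against 21.9% of intronic and 19.6% of intergenic regions. Within 200 bp these shares were 35.0%, 43.6% and 39.3%. Leaving out regions with another copy, chosen after seeing the data, left 835 regions and moved no result beyond its limit. Read depth is unknown, so absence from a list does not show closed chromatin.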
